A study of Homo sapiens with 21 samples.

Results

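In hTERT-HPNE cells, an immortalized nontransformed human pancreatic duct line, 72 of 23368 listed genes were higher at 24 h after hydrogen peroxide (H2O2) and little changed at 24 h after neocarzinostatin (NCS). These genes were chosen by the measured values themselves. The mean of the H2O2 24 h libraries had to exceed the untreated mean by more than 0.5, and the mean of the NCS 24 h libraries had to exceed it by less than 0.25, both as differences of rLog values, which are on a log2 scale. Symbols beginning with ABCC, AKR or COL were to be left out, and 0 of the genes that met the limits had such a symbol. The 24 h values are therefore given as a description and were not tested. Differences between the 4 h and 8 h libraries of both treatments used no library of the choice. The spread in their tests was estimated over all 7 groups, which include the libraries of the choice. Comparisons of the 4 h and 8 h libraries with untreated cells share the untreated libraries with the choice and are given as a description.

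Both agents damage cells in different ways. H2O2 is an oxidant that reacts with protein thiols and iron, whereas NCS is a radiomimetic drug that cuts DNA directly. Oxidants release the transcription factor NRF2 from its inhibitor KEAP1, and NRF2 then turns on genes of glutathione and quinone metabolism and of iron storage. A second pathway, the integrated stress response (ISR), begins when kinases phosphorylate the translation factor eIF2α. Translation of the transcription factor ATF4 then rises, and ATF4 with C/EBP partners turns on amino acid transporters, aminotransferases and tRNA synthetases.

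The study compared 7 groups of 3 biological replicates, 21 libraries in all. Untreated cells were collected at 0 h, and treated cells at 4, 8 or 24 h after 300 µM H2O2 or 400 ng/ml NCS given in fresh medium. All groups were the same line, kept with EGF and puromycin, and 1 line stands for the tissue. There was no untreated group at 4, 8 or 24 h, so treatment and time in fresh medium cannot be told apart in differences from untreated cells; differences between H2O2 and NCS at 1 time do not have this limit. The deposited values hold no counts, so the depth of the libraries is unknown and no counting interval was calculated. The rLog transformation shrinks differences, most for genes with few reads, and 4 of the 72 genes had a mean value under 5. In bulk RNA, more cells of one state and more RNA per cell cannot be told apart, for any difference below. The p-values measure the spread between biological replicates.

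The line's markers were checked against its label. NES, a progenitor filament gene, had values between 11.78 and 12.28, and VIM, a mesenchymal filament gene, between 16.79 and 17.25. Of the ductal keratins, KRT18 lay between 11.38 and 11.85, KRT8 between 7.73 and 8.28 and KRT7 between 6.61 and 7.17, whereas KRT19 lay between 0.58 and 0.73, close to 0. Acinar PRSS1 and CELA3A, islet INS and blood CD3E and HBB were listed at 0 in all 21 libraries. Only CD68 of the blood markers was well detected, between 9.94 and 10.57.

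One library stood apart. Replicate 2 of the H2O2 8 h group deviated from its group mean with an SD of 0.0656 over all varying genes, against 0.0372 to 0.0533 for the other 20 libraries. It was the lowest of the 3 replicates for 53 of the 72 genes (73.6%) and for 46.8% of all varying genes, and the median deviation of the 72 genes in it was -0.095. Counts at 8 h are therefore given with and without it.

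At 24 h after H2O2 the 72 genes stood between 0.50 and 1.07 above untreated cells, with a median of 0.59, and at 24 h after NCS between -0.19 and 0.25, with a median of 0.16. Over all 19694 varying genes both medians were 0.00. Of 445 genes more than 0.5 above untreated cells after H2O2, 194 were also more than 0.5 above after NCS, 179 were 0.25 to 0.5 above and the remaining 72 are described here. The converse pattern, NCS above 0.5 and H2O2 below 0.25, held for 16 genes. The limits cut through a continuous range. TRIM16 at 0.5006 and GCC1 at 0.5013 were just inside the H2O2 limit, and RORA at 0.4994 and PTGFR at 0.4956 just outside. ABHD4 at 0.2465 and GPT2 at 0.2444 were just inside the NCS limit, and MYO15B at 0.2533 was outside it.

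The choice was repeated on 2 of the 3 replicates and read in the third, again with no test. Leaving out replicate 1, 2 or 3 chose 73, 75 or 72 genes, of which 62 each time were among the 72. Both limits were met in the left-out replicate by 44, 47 and 43 of them. The H2O2 difference exceeded the NCS difference in the left-out replicate for all 73, 75 and 72 genes. The left-out libraries belong to the groups that the choice used, and the genes were chosen for this gap in the other 2 replicates. This order therefore largely follows from the choice. In the left-out replicate the median H2O2 difference was 0.54, 0.62 and 0.63, and the median NCS difference 0.13, 0.17 and 0.17. Over all varying genes the median H2O2 difference there was -0.0011, -0.0005 and -0.0004.

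The largest 24 h differences belonged to genes of mixed function. TM6SF1, which encodes a transmembrane protein, led at 1.07. The next were LOC344887, a pseudogene now named NMRAL2P (0.98), the long noncoding RNA LOC100505633, now LINC01133 (0.94), OSBPL6, an oxysterol-binding protein relative (0.89), and UPP1, uridine phosphorylase (0.88). FTH1, the ferritin heavy chain, stood at 0.85, NDRG1, a stress-responsive gene, at 0.83, and SLC3A2, the heavy chain shared by several amino acid exchangers, at 0.83. Below these came GYPC, glycophorin C (0.81), FLJ46906 (0.79), FAM167A (0.79), the quinone reductase NQO1 (0.78), cystatin A (CSTA, 0.77), the leukotriene B4 hydroxylase CYP4F3 (0.76) and SLC16A14 of the monocarboxylate transporter family (0.76). After NCS, 5 genes lay below untreated cells at 24 h: FOXQ1 at -0.19, CYGB at -0.15, AGPAT9 at -0.05, NQO1 at -0.03 and SLC7A11 at -0.03.

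**Figure D1:**
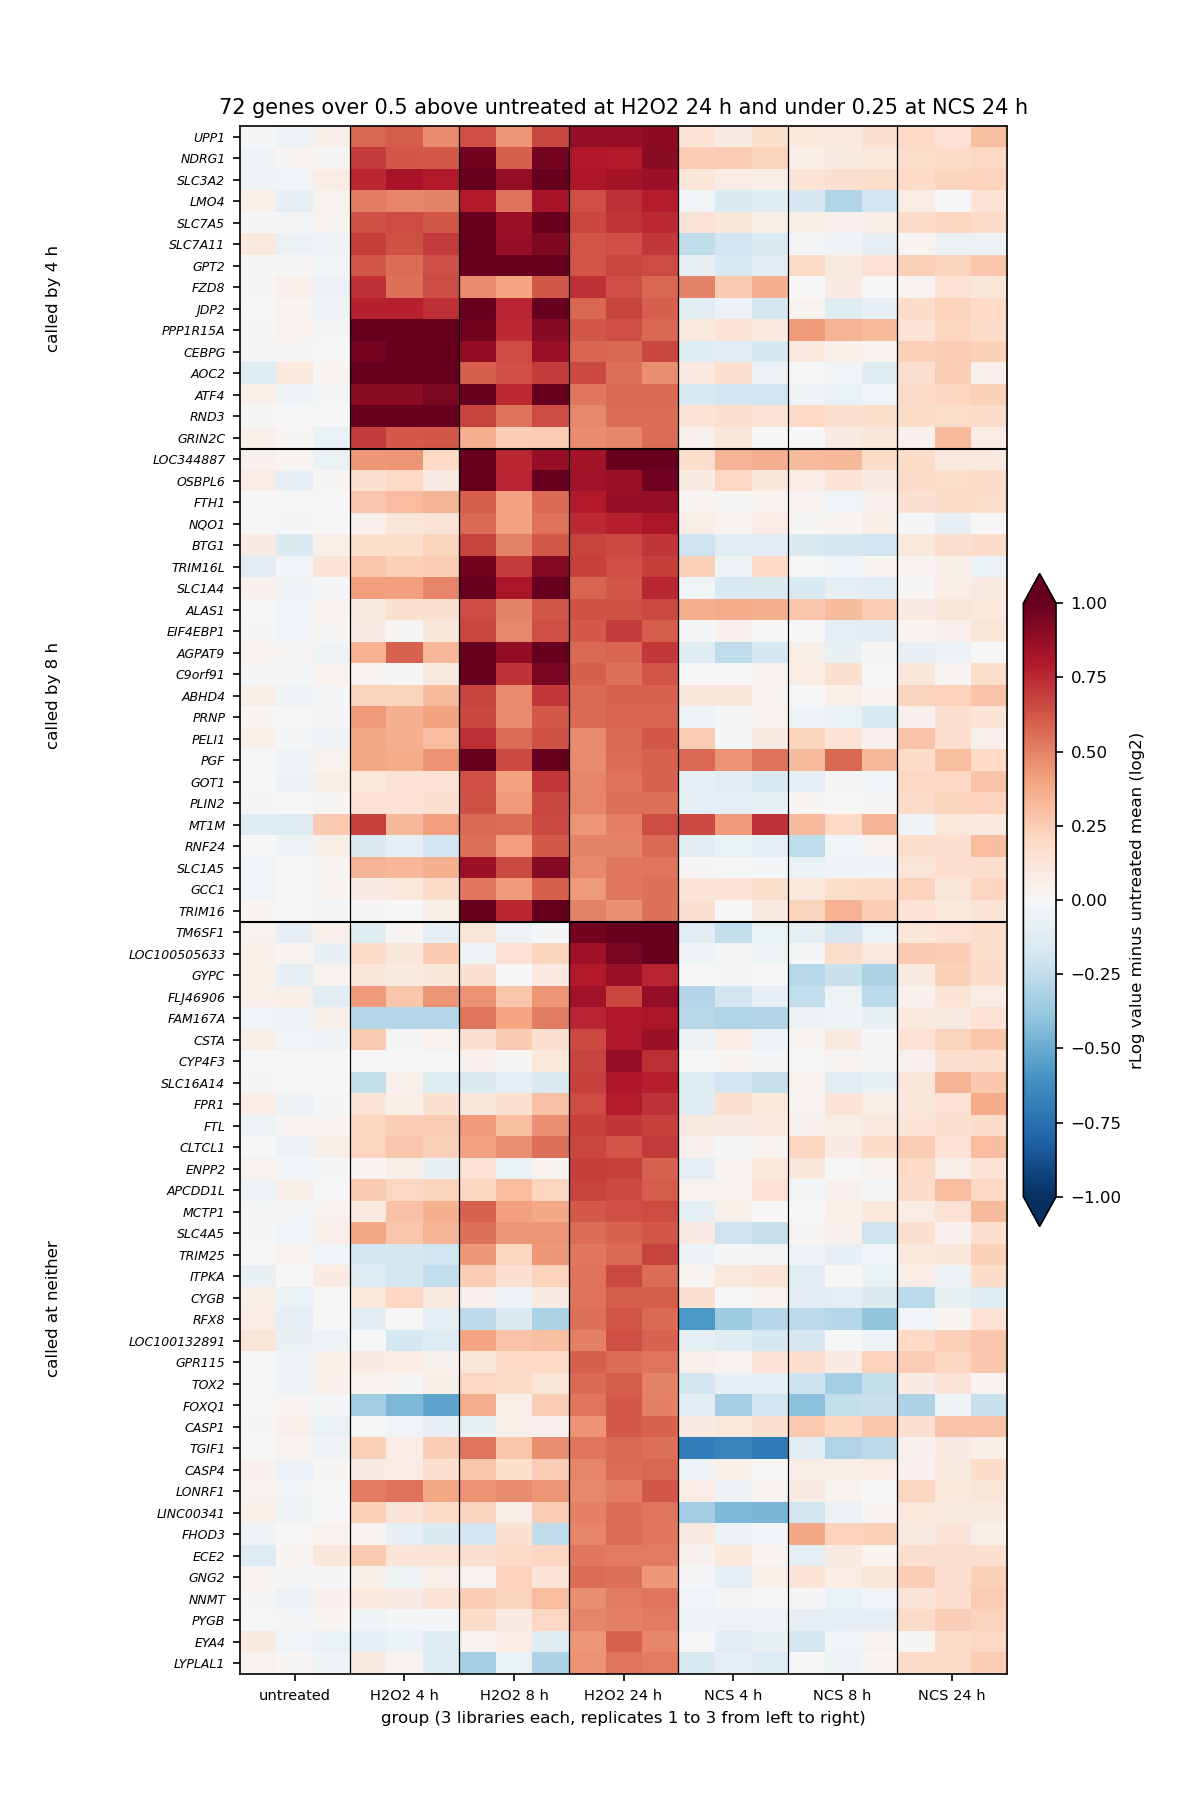
Heat map of the 72 genes (rows) in the 21 libraries (columns, 3 replicates a group from left to right). Color gives the rLog value minus the untreated mean on a log2 scale, limited to 1 either way, and rows are split into 15 genes called above untreated cells at 4 h, 22 called at 8 h and not 4 h, and 35 called at neither time. Red fills the H2O2 4 h columns of the top block, while the middle block is paler at 4 h, with a median of 0.22, than at 8 h, with a median of 0.61.

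In the time course, some of these genes were already called above untreated cells at 4 h or 8 h after H2O2. A gene was called at an adjusted p under 0.05 together with a difference over 0.5, the same size as the limit of the choice. At 4 h after H2O2, 15 of the 72 genes were called higher than in untreated cells and 0 lower, with 2.85% and 1.14% of all varying genes called in those directions. At 8 h the counts were 35 higher and 0 lower, beside 1.93% and 1.62% of all genes, and 38 higher without replicate 2 of the H2O2 8 h group. These comparisons share the untreated libraries with the choice of the genes and are a description. By this measure 15 genes were above untreated cells by 4 h, 22 more by 8 h and 35 at neither time. The highest H2O2 mean fell at 4 h for 5 genes, at 8 h for 23 and at 24 h for 44, and 27 genes were higher at 8 h than at 24 h.

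After NCS, few of the 72 genes were called at the earlier times, and calls were also few over all varying genes. At 4 h, 2 (2.78%) were called higher and 1 (1.39%) lower, beside 0.599% and 0.66% of all varying genes. The metallothionein MT1M differed by 0.60 and placental growth factor, PGF, by 0.52, while TGIF1, a homeobox repressor of TGF-β signaling, fell by 0.69 on the log2 scale. All 3 were thus called after NCS at 4 h although they met the NCS limit at 24 h. At 8 h after NCS, limma called 0 genes in either direction, beside 0.604% and 1.13% of all genes. By adjusted p alone 12 were higher and 8 lower, beside 2074 and 2629 of 19694 varying genes. The NCS comparisons also share the untreated libraries with the choice of the genes and are a description. The median difference of the 72 genes from untreated cells was 0.00 at 4 h and 0.01 at 8 h after NCS, against 0.19 and 0.49 after H2O2.

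A comparison of H2O2 with NCS at the same time took its differences from no library of the choice. At 4 h, 17 of the 72 genes (23.6%) were called higher after H2O2 and 0 lower, beside 2.81% and 1.02% of all varying genes, and the median difference was 0.15. At 8 h, 34 of the 72 (47.2%) were called higher and 0 lower, beside 1.17% and 0.442% of all genes, and the median difference was 0.47. Without replicate 2 of the H2O2 8 h group, 37 were higher, including all 34, and 1, the formin gene FHOD3, was lower. All 3 H2O2 replicates lay above all 3 NCS replicates for 43 genes at 4 h and 60 at 8 h, and below them for 6 and 3 genes. This separation was not counted over all varying genes, so these numbers are only a description. By adjusted p alone, 39 of the 72 genes were higher and 5 lower at 4 h, beside 5184 and 3554 of 19694 varying genes. At 8 h, 57 were higher and 3 lower, beside 3679 and 3042. Among the 192 genes more than 0.5 above untreated cells at 24 h after both agents, with the same symbols left out, the 4 h calls were 22 higher and 17 lower, and the 8 h calls 27 higher and 7 lower.

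Of the 72 genes, 14 were called higher than after NCS at both times: SLC3A2, FLJ46906, LMO4, SLC7A5, SLC7A11, SLC1A4, GPT2, AGPAT9, JDP2, PPP1R15A, CEBPG, AOC2, ATF4 and TGIF1. Another 20 were called at 8 h and not at 4 h: LOC344887, OSBPL6, FTH1, NDRG1, FAM167A, BTG1, TRIM16L, EIF4EBP1, C9orf91, SLC4A5, ABHD4, PRNP, PELI1, FOXQ1, PGF, GOT1, PLIN2, RNF24, SLC1A5 and TRIM16. Only RND3, LINC00341 and GRIN2C, 3 genes, were called at 4 h and not at 8 h. The remaining 35 were called at neither time, among them TM6SF1, UPP1, NQO1, FTL, CASP1, CASP4 and ENPP2. In the plot of the 4 h and 8 h differences these 4 groups fill the upper right, upper left, lower right and central fields.

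**Figure D2:**
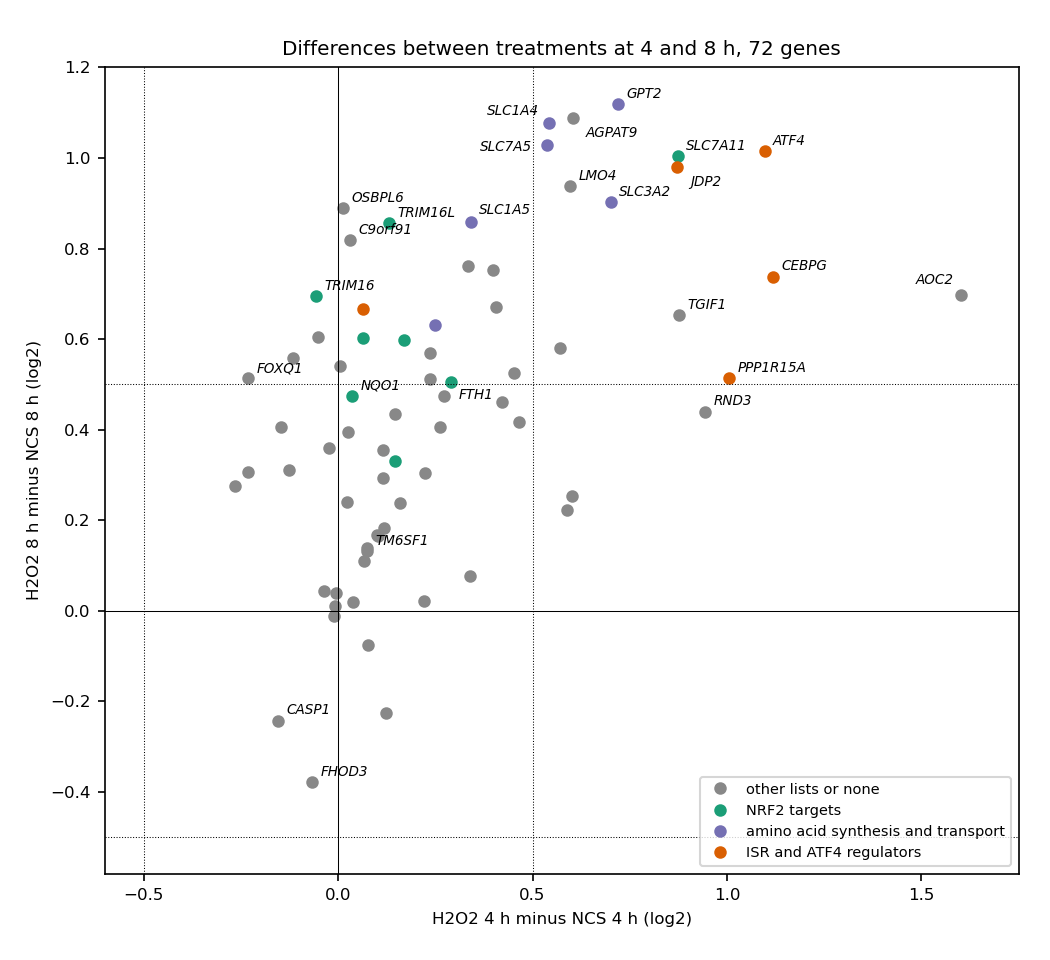
Scatter plot of the 72 genes, with H2O2 4 h minus NCS 4 h on the x axis and H2O2 8 h minus NCS 8 h on the y axis (log2); dotted lines mark differences of 0.5. Points are colored by gene list (SLC7A11, in the NRF2 and amino acid lists, is drawn with NRF2), and all 12 genes of the ISR and amino acid lists lie above 0.5 on the y axis.

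Of 15 lists compiled by hand, 7 held at least 1 of the 72 genes, and 26 of the 72 genes were in a list. The lists of ISR regulators and of amino acid synthesis and transport, joined into 1 group after their values were seen, held 12 of the 72 genes. Of these 12, 9 were called higher after H2O2 than after NCS at 4 h and 12 at 8 h, beside 2.81% and 1.17% of all varying genes, with median differences of 0.71 and 0.94. The 46 genes in no list had 8 such calls at 4 h and 16 at 8 h.

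Among the ISR regulators, 5 of 20 listed genes were in the set. ATF4, the central transcription factor of the pathway, had values of 12.84, 12.75 and 12.78 in untreated cells, 13.69, 13.69 and 13.73 at 4 h and 13.87, 13.54 and 13.88 at 8 h after H2O2, and 12.63, 12.60 and 12.59 and 12.76, 12.72 and 12.76 at those times after NCS. Every H2O2 library was above every NCS and untreated library, with the lowest 8 h value in replicate 2. The difference from NCS was 1.10 ± 0.06 (SE, adjusted p = 5.14e-11) at 4 h and 1.01 ± 0.06 (SE, adjusted p = 8.27e-10) at 8 h. CEBPG, which encodes a C/EBP partner of ATF4, read 10.67, 10.73 and 10.72 at 4 h after H2O2 and 9.60, 9.61 and 9.56 after NCS, with 9.71, 9.73 and 9.71 in untreated cells. Groups did not overlap, and the difference was 1.12 ± 0.04 (SE, adjusted p = 1.09e-12) at 4 h and 0.74 ± 0.04 (SE, adjusted p = 9.77e-10) at 8 h. JDP2, a bZIP repressor of AP-1 sites, read 9.47, 9.47 and 9.43 at 4 h after H2O2 against 8.59, 8.64 and 8.53 after NCS. These values were apart in all replicates too, by 0.87 ± 0.05 (SE, adjusted p = 3.48e-10) at 4 h and 0.98 ± 0.05 (SE, adjusted p = 5.38e-10) at 8 h.

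PPP1R15A, also called GADD34, encodes the phosphatase subunit that reverses eIF2α phosphorylation. Its values were 12.94, 12.91 and 12.95 at 4 h and 12.78, 12.56 and 12.72 at 8 h after H2O2, against 11.91, 11.96 and 11.91 and 12.24, 12.16 and 12.13 after NCS and 11.80, 11.85 and 11.79 in untreated cells. The difference between agents was 1.01 ± 0.04 (SE, adjusted p = 2.19e-12) at 4 h and 0.51 ± 0.04 (SE, adjusted p = 3.77e-08) at 8 h, where the call was lost without H2O2 8 h replicate 1 (0.47), H2O2 8 h replicate 3 (0.50) or NCS 8 h replicate 3 (0.49). EIF4EBP1, a repressor of cap-dependent translation, started later. It read 10.80, 10.73 and 10.83 after H2O2 and 10.70, 10.76 and 10.71 after NCS at 4 h, but 11.39, 11.20 and 11.36 and 10.72, 10.62 and 10.61 at 8 h. The agents overlapped at 4 h (0.06 ± 0.05, adjusted p = 0.292) and not at 8 h, where the difference was 0.67 ± 0.05 (SE, adjusted p = 5.05e-09).

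Of all 20 ISR genes listed, 13 were called higher after H2O2 than after NCS at 4 h and 13 at 8 h, with 0 lower. The shares of all varying genes called higher were 2.81% and 1.17%. At 24 h, 14 were more than 0.5 above untreated cells after H2O2 and 9 after NCS, beside 445 and 287 of all 23368 genes. The 5 in the set are among the 14, and for them this follows from the choice. DDIT3, TRIB3, CHAC1 and ATF3 were among those above 0.5 at 24 h after both agents and so not among the 72 genes.

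The amino acid list supplied 7 of its 28 genes, 5 of them plasma membrane carriers. SLC7A11, the cystine importer that feeds glutathione synthesis, read 11.32, 11.15 and 11.18 in untreated cells, 11.91, 11.85 and 11.92 at 4 h and 12.27, 12.09 and 12.15 at 8 h after H2O2. After NCS it read 10.96, 11.02 and 11.07 and 11.20, 11.18 and 11.11. All H2O2 values were above 11.8 and all NCS and untreated values below 11.4, and the difference was 0.87 ± 0.05 (SE, adjusted p = 7.52e-11) at 4 h and 1.00 ± 0.05 (SE, adjusted p = 1.01e-10) at 8 h. SLC3A2, the heavy chain of SLC7A11 and SLC7A5, differed by 0.70 ± 0.05 (SE, adjusted p = 3.35e-09) at 4 h, from values of 13.03, 13.10 and 13.07 after H2O2 and 12.40, 12.35 and 12.34 after NCS. At 8 h it differed by 0.90 ± 0.05 (SE, adjusted p = 8.26e-10), and its replicates did not overlap at either time. SLC7A5, the large neutral amino acid carrier, differed by 0.54 ± 0.06 at 4 h and 1.03 ± 0.06 (SE, adjusted p = 8.81e-10) at 8 h. The neutral amino acid carriers SLC1A4 and SLC1A5 were 1.08 ± 0.05 and 0.86 ± 0.04 higher after H2O2 at 8 h, and of these SLC1A4 was called at 4 h as well (0.54 ± 0.05).

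The other 2 genes of the list were aminotransferases. GPT2, the mitochondrial alanine aminotransferase, had the largest 8 h difference of all 72 genes. It read 10.38, 10.06 and 10.44 at 8 h after H2O2 and 9.22, 9.12 and 9.18 after NCS, with 9.04, 9.05 and 9.01 in untreated cells. The agents were apart by 1.12 ± 0.06 (SE, adjusted p = 7.81e-10) at 8 h and 0.72 ± 0.06 at 4 h, and at 24 h after H2O2 GPT2 read 9.66, 9.70 and 9.69. GOT1, the cytosolic aspartate aminotransferase, read 11.42, 11.17 and 11.48 at 8 h after H2O2 and 10.68, 10.75 and 10.75 after NCS, a difference of 0.63 ± 0.05 (SE, adjusted p = 9.55e-08); at 4 h it was 0.25 ± 0.05 and under the limit of size. Of the 27 varying genes listed for amino acid synthesis and transport, 10 were called higher than after NCS at 4 h and 16 at 8 h, with 0 lower at both times. Of 21 tRNA synthetase and tRNA export genes, 0 were in the set, 2 were called higher at 4 h and 5 at 8 h. For both lists, the shares of all varying genes called higher were 2.81% at 4 h and 1.17% at 8 h.

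**Figure D3:**
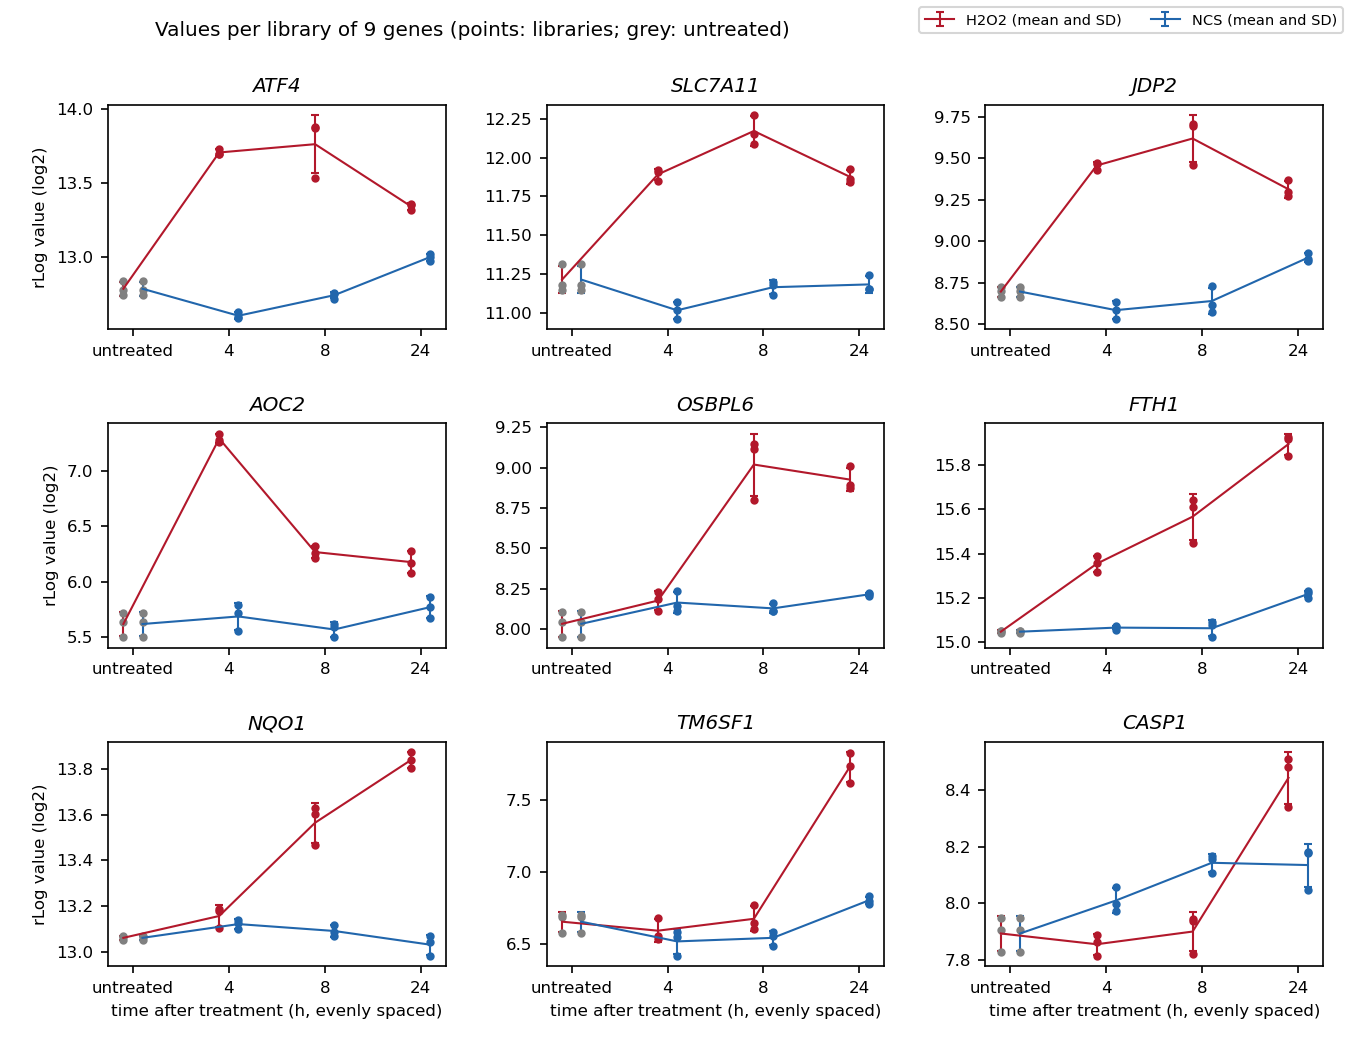
Values of 9 genes per library (points) with group means and SDs (lines and bars, n = 3), for untreated cells (gray) and at 4, 8 and 24 h after H2O2 (red) or NCS (blue); the y axis is the rLog value and differs between panels. ATF4, SLC7A11, JDP2, AOC2 and FTH1 were apart at 4 h and 8 h, and OSBPL6 and NQO1 at 8 h and not at 4 h. TM6SF1 and CASP1 stood near or below the NCS libraries until 24 h. At 24 h, a time the choice used, all 72 genes were apart.

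ATF4 and C/EBP partners are known to bind a composite site, and promoters were searched for its letters. RefSeq promoter windows (GRCh38.p14), from 250 bases before to 50 after a gene's start, were found for 49 of the 72 genes. The motif TGATGNAA, read on both strands, occurred in 9 of the 49 genes (18.4%), in 3.32% of 14448 varying genes with a window, in 4.46% of the 27305 genes of the whole RefSeq table and in 3.9% of 154 genes higher after both agents. Of the 9 ISR and amino acid genes with a window, 6 held it, and of 36 genes outside those and the NRF2 list, 3 did. The 30 bases around each match are shown because this motif had the widest gap from its background. Capitals mark the match, and each stretch is written 5′ to 3′ along the gene's strand.
CEBPG, chr19:33374060-33374089, + strand: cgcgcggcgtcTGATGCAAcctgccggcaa
JDP2, chr14:75427995-75428024, + strand: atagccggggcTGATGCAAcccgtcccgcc
GOT1, chr10:99430804-99430833, - strand: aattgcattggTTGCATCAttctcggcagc
SLC1A4, chr2:64989381-64989410, + strand: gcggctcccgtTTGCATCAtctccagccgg
SLC1A5, chr19:46784893-46784922, - strand: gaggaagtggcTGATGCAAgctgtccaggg
SLC3A2, chr11:62881719-62881748, + strand: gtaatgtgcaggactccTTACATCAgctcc
AOC2, chr17:42844345-42844374, + strand: tctggtctaaaTGATGGAAatcagtagttg
C9orf91 (TMEM268), chr9:114611279-114611308, + strand: gggcgctcggcTGATGAAAcgcggcctcca
LOC100505633 (LINC01133), chr1:159961214-159961243, + strand: caccccaattcTGATGTAAcagccttggga
In CEBPG, JDP2 and SLC1A5 the match was the same run TGATGCAA, and in GOT1 and SLC1A4 its reverse complement, TTGCATCA. Counted from the start, the matches began at positions from -224 to 37, at -42 in CEBPG and at -16 in JDP2. A match describes letters and does not show that a factor binds there.

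Other motifs were closer to their background. The AP-1 motif TGANTCA occurred in 18.4% of the 49 genes and 7.81% of varying genes, and the NRF2 core TGACNNNGC in 22.4% and 18.6%. These matches overlap in SLC3A2, where both begin at position -37 from the start. The interferon response core GAAANNGAA was in 14.3% and 9.07%, the E-box CACGTG in 14.3% and 11.4%, the palindrome TGACGTCA in 4.08% and 3.22%, the heat shock core GAANNTTC in 4.08% and 7.14%, and the GC box GGGCGG in 71.4% and 68.0%. TCACGTGA, an extended form of the E-box that lysosomal genes often carry, was in 0 of the 49 and 1.8% of varying genes. Of the NRF2 list, 4 genes had a window, and 0 of them held the NRF2 core in it, which says only that these letters are not in those 300 bases.

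**Figure D4:**
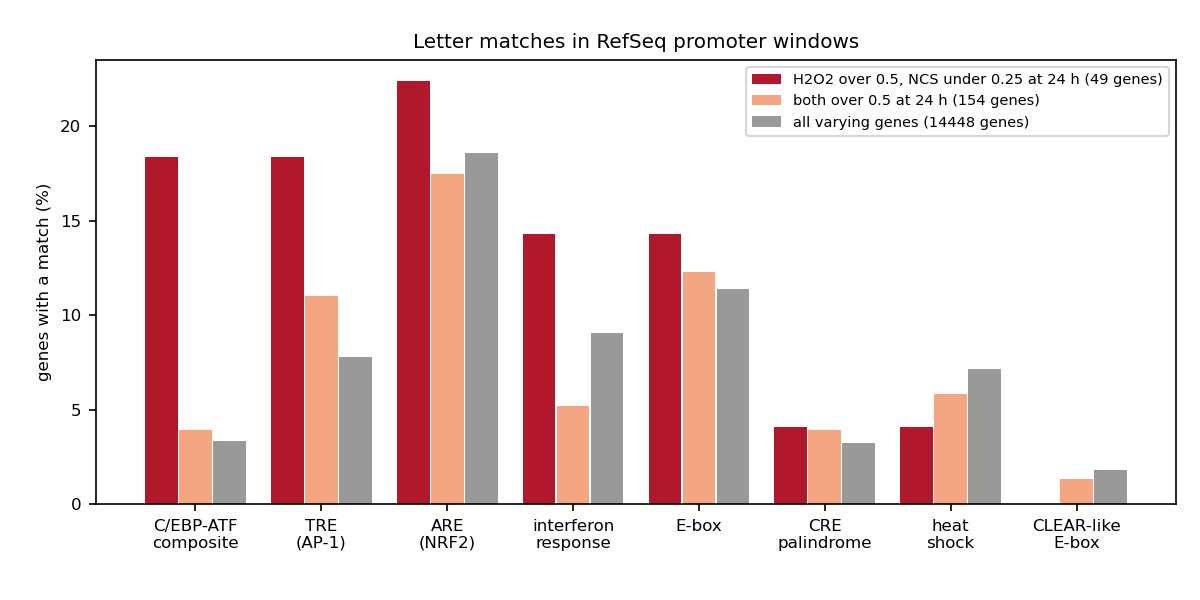
Share of genes with at least 1 match in a RefSeq promoter window (y axis, percent) for 8 motifs, in 49 of the 72 genes, 154 genes more than 0.5 above untreated cells at 24 h after both agents and 14448 varying genes. The C/EBP-ATF composite shows the widest gap, 18.4% against 3.9% and 3.32%.

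The NRF2 list supplied 8 of its 37 genes, most of them called at 8 h and not at 4 h. At 4 h, 1 of the 8, SLC7A11, was called higher after H2O2 than after NCS, and at 8 h 6 were, beside 2.81% and 1.17% of all varying genes, with median differences of 0.14 and 0.60. FTH1, the iron-storing ferritin heavy chain, read 15.04, 15.05 and 15.05 in untreated cells, 15.32, 15.36 and 15.39 at 4 h, 15.64, 15.45 and 15.61 at 8 h, then 15.84, 15.92 and 15.93 at 24 h after H2O2. After NCS it read 15.07, 15.06 and 15.07, 15.08, 15.02 and 15.09 and 15.20, 15.23 and 15.22. H2O2 values were higher than all NCS values at each time, by 0.29 ± 0.04 at 4 h and 0.50 ± 0.04 (SE, adjusted p = 1.01e-08) at 8 h, just over the limit of size. The 8 h call was lost without H2O2 8 h replicate 1 (0.47) or 3 (0.48) or NCS 8 h replicate 2 (0.48). FTL, the light chain, followed with smaller differences of 0.15 ± 0.03 and 0.33 ± 0.03 (SE, adjusted p = 2.05e-07), which did not reach the limit. Reads of both ferritin genes can be shared with their pseudogenes, so their values are uncertain.

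NQO1 reduces quinones and is a widely used NRF2 target. It read 13.10, 13.18 and 13.19 after H2O2 and 13.13, 13.10 and 13.14 after NCS at 4 h, and 13.63, 13.47 and 13.60 and 13.07, 13.09 and 13.12 at 8 h, from 13.06, 13.05 and 13.07 in untreated cells. The agents overlapped at 4 h, and the difference at 8 h was 0.47 ± 0.03 (SE, adjusted p = 1.07e-08), under the limit of size with all libraries and over it without replicate 2 of the H2O2 8 h group. Later, H2O2 values reached 13.80, 13.84 and 13.87 at 24 h and NCS values 13.04, 12.98 and 13.07. TRIM16, which encodes a tripartite motif protein of the oxidative stress response, read 9.37, 9.37 and 9.42 at 4 h and 10.44, 10.12 and 10.44 at 8 h after H2O2, against 9.51, 9.37 and 9.45 and 9.59, 9.71 and 9.62 after NCS. Its replicates overlapped between agents at 4 h and were apart at 8 h by 0.69 ± 0.06 (SE, adjusted p = 1.19e-07). TRIM16L, a near copy of TRIM16 with which it can share reads, differed by 0.86 ± 0.07 at 8 h, so the pair is not independent. LOC344887 differed by 0.60 ± 0.08 and ABHD4, a serine hydrolase of lipid metabolism, by 0.60 ± 0.05 at 8 h.

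Over all 37 listed NRF2 targets, 4 were called higher after H2O2 than after NCS at 4 h and 14 at 8 h, with 0 lower. Among all varying genes, 2.81% and 1.17% were called higher. At 24 h, 11 were more than 0.5 above untreated cells after H2O2 and 0 after NCS, beside 445 and 287 of all 23368 genes. The 8 in the set are among the 11, and for them this follows from the choice. Some well-known targets were not in the set. TXNRD1, thioredoxin reductase, was 1.20 higher than after NCS at 8 h and stood 0.46 above untreated cells at 24 h. HMOX1, heme oxygenase, was 2.56 higher than after NCS at 4 h and missed the set by its NCS value of 0.27 at 24 h.

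Genes of no list made up much of the early response. AOC2, a copper amine oxidase, had the largest 4 h difference of the 72 genes. It read 5.50, 5.72 and 5.64 in untreated cells, 7.33, 7.26 and 7.28 at 4 h, 6.22, 6.26 and 6.32 at 8 h, then 6.27, 6.17 and 6.08 at 24 h after H2O2, and 5.71, 5.79 and 5.56 at 4 h after NCS. Its peak was thus at 4 h in all 3 replicates, with a difference from NCS of 1.60 ± 0.07 (SE, adjusted p = 5.17e-12). RND3, an atypical small GTPase, read 12.92, 12.91 and 12.94 at 4 h after H2O2 and 11.97, 11.99 and 11.97 after NCS, apart by 0.94 ± 0.03 (SE, adjusted p = 1.86e-14). TGIF1 differed by 0.88 ± 0.06 (SE, adjusted p = 6.8e-10) at 4 h, but from values of 9.41, 9.25 and 9.42 after H2O2, 8.48, 8.51 and 8.47 after NCS and 9.18, 9.20 and 9.14 in untreated cells. The larger part of this gap lay in the low NCS values.

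At 8 h, AGPAT9, an acyltransferase of triglyceride synthesis now named GPAT3, read 8.56, 8.23 and 8.51 after H2O2 and 7.40, 7.27 and 7.36 after NCS. With 7.38, 7.36 and 7.30 in untreated cells, NCS values were close to untreated ones, and the agents differed by 1.09 ± 0.08 (SE, adjusted p = 7.37e-09). LMO4, a LIM-domain adaptor, read 9.71, 9.46 and 9.74 after H2O2 and 8.75, 8.62 and 8.73 after NCS, a difference of 0.94 ± 0.06 (SE, adjusted p = 4.17e-09). OSBPL6 overlapped between agents at 4 h, where it read 8.19, 8.23 and 8.11 after H2O2 and 8.11, 8.24 and 8.15 after NCS. At 8 h it read 9.11, 8.80 and 9.14 and 8.11, 8.16 and 8.12, and the replicates were apart by 0.89 ± 0.07 (SE, adjusted p = 2.37e-08).

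Other genes with large 24 h differences varied in timing. UPP1, which splits uridine, read 8.70, 8.66 and 8.78 in untreated cells, 9.29, 9.32 and 9.19 at 4 h and 9.36, 9.15 and 9.38 at 8 h after H2O2, and 8.85, 8.80 and 8.89 and 8.82, 8.81 and 8.87 after NCS. The agents were apart at both times, by 0.42 ± 0.05 (SE, adjusted p = 3.36e-06) and 0.46 ± 0.05 (SE, adjusted p = 2.22e-06), short of the limit of size. NDRG1 read 10.72, 10.36 and 10.72 at 8 h after H2O2 and 9.83, 9.85 and 9.86 after NCS, a difference of 0.75 ± 0.06 (SE, adjusted p = 7.88e-08). FAM167A read 11.03, 11.03 and 11.12 in untreated cells, and at 4 h 10.78, 10.77 and 10.78 after H2O2 and 10.78, 10.76 and 10.77 after NCS, so that both agents lay below untreated cells. At 8 h it read 11.59, 11.46 and 11.57 after H2O2 and 11.00, 11.01 and 10.98 after NCS, apart by 0.54 ± 0.03 (SE, adjusted p = 7.09e-10). FLJ46906 differed by 0.57 ± 0.08 (SE, adjusted p = 8.61e-06) at 4 h and 0.58 ± 0.08 (SE, adjusted p = 1.15e-05) at 8 h, with H2O2 values of 6.46, 6.29 and 6.45 and NCS values of 5.76, 5.96 and 5.74 at 8 h around the untreated 6.06, 6.08 and 5.89. LOC100505633 was apart at neither time by the rule for calls (0.22 ± 0.07 at 4 h, 0.02 ± 0.07 at 8 h).

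Between 4 h and 8 h after H2O2, 14 of the 72 genes rose and 1, AOC2, fell, beside 1.76% and 1.81% of all varying genes. Without replicate 2 of the H2O2 8 h group, 19 rose and 1 fell. The rise was not particular to the 72 genes, of which 19.4% rose and 1.39% fell with all libraries. Of the 192 genes above 0.5 at 24 h after both agents, 36 (18.8%) rose and 5 (2.6%) fell. The change between times was tested as an interaction, the H2O2 minus NCS difference at 8 h minus that at 4 h. It was positive for 15 of the 72 genes and negative for 2, beside 2.05% and 1.87% of all genes, and without that replicate it was positive for 19 and negative for 1. For 7 of the 15 the order of the means turned, with H2O2 below NCS at 4 h and above at 8 h (ALAS1, TRIM25, ITPKA, FOXQ1, PGF, RNF24 and TRIM16). Of these 7, RNF24 and TRIM16 had overlapping replicates at 4 h, and PGF did not pass the limma test there (-0.12 ± 0.09, adjusted p = 0.35). The means of the other 8 were above NCS at both times. The highest values were those of OSBPL6 (0.88 ± 0.10 (SE, adjusted p = 1.98e-06)), C9orf91, a membrane protein gene now named TMEM268 (0.79 ± 0.08 (SE, adjusted p = 1.21e-06)), TRIM16 (0.75 ± 0.09 (SE, adjusted p = 3.29e-06)), the forkhead factor FOXQ1 (0.74 ± 0.12 (SE, adjusted p = 8.42e-05)) and TRIM16L (0.73 ± 0.11 (SE, adjusted p = 3.78e-05)). The gap of AOC2 decreased by 0.91 ± 0.10 (adjusted p = 1.69e-06), and that of RND3 decreased by 0.50 ± 0.04 (adjusted p = 2.97e-08). The RND3 call is at the limit of size and was lost without replicate 2 of the H2O2 8 h group, at -0.46.

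FOXQ1 was below untreated cells at 4 h. It read 5.80, 5.82 and 5.78 in untreated cells, 5.45, 5.35 and 5.28 at 4 h, 6.17, 5.86 and 6.05 at 8 h, then 6.34, 6.42 and 6.31 at 24 h after H2O2. After NCS it read 5.69, 5.48 and 5.61 at 4 h, 5.39, 5.57 and 5.58 at 8 h, then 5.50, 5.76 and 5.58 at 24 h. Values at 4 h after H2O2 were below all untreated values, and those at 24 h above them. The difference between agents was -0.23 ± 0.08 (SE, adjusted p = 0.0299) at 4 h and 0.51 ± 0.08 (SE, adjusted p = 8.15e-05) at 8 h, and the 8 h call was lost without H2O2 8 h replicate 1 (0.44) or NCS 8 h replicate 1 (0.45).

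The 35 genes called above untreated cells at neither 4 h nor 8 h included the gene with the largest 24 h difference. TM6SF1 read 6.68, 6.57 and 6.70 in untreated cells, 6.53, 6.68 and 6.56 at 4 h and 6.77, 6.60 and 6.64 at 8 h after H2O2, and 7.62, 7.73 and 7.83 at 24 h. After NCS it read 6.55, 6.49 and 6.58 at 8 h, then 6.78, 6.80 and 6.83 at 24 h. The difference between agents did not pass the test at 4 h (0.07 ± 0.06, adjusted p = 0.363) or 8 h (0.13 ± 0.06, adjusted p = 0.114). CYP4F3, a low gene, read 2.69, 2.69 and 2.69 in untreated cells, 2.73, 2.70 and 2.80 at 8 h, then 3.36, 3.56 and 3.43 at 24 h after H2O2, and 2.73, 2.86 and 2.87 at 24 h after NCS. CSTA, an inhibitor of cysteine proteases in epithelia, read 4.06, 3.97 and 3.96 in untreated cells and 4.66, 4.79 and 4.86 at 24 h after H2O2, and 4.14, 4.22 and 4.27 after NCS. Of the epidermal barrier list of 28 genes, 23 varied and 1, CSTA, was in the set. ENPP2, the secreted enzyme that makes lysophosphatidic acid, read 6.84, 6.79 and 6.80 in untreated cells and 6.95, 6.74 and 6.84 at 8 h, then 7.50, 7.49 and 7.40 at 24 h after H2O2. It was 1 of 29 matrix remodeling genes in the set, and its difference from NCS was -0.01 ± 0.06 at 4 h and -0.01 ± 0.06 at 8 h. GYPC and SLC16A14 were also near untreated values until 24 h, at 8.98, 8.83 and 8.93 and 6.01, 6.06 and 6.02 at 8 h after H2O2.

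Of the interferon and innate sensing list, 3 of 51 genes were in the set. CASP1, an inflammatory caspase, read 7.91, 7.95 and 7.83 in untreated cells, 7.82, 7.94 and 7.94 at 8 h, then 8.34, 8.51 and 8.48 at 24 h after H2O2, and 8.16, 8.11 and 8.17 and 8.05, 8.18 and 8.18 at 8 and 24 h after NCS. At 8 h all H2O2 values lay below all NCS values, by -0.24 ± 0.05 (SE, adjusted p = 0.000838), short of the limit of size, so the order at 24 h was the opposite of that at 8 h. CASP4, a second inflammatory caspase and a chromosome 11 neighbor of CASP1 at 56.9 kb, differed by 0.17 ± 0.04 (SE, adjusted p = 0.00294) at 8 h in the other direction. TRIM25, a ubiquitin ligase of RNA sensing, read 10.66, 10.66 and 10.63 after H2O2 and 10.77, 10.81 and 10.81 after NCS at 4 h, and 11.26, 11.04 and 11.26 and 10.79, 10.75 and 10.80 at 8 h. The H2O2 values were thus below the NCS values at 4 h (-0.15) and above them at 8 h (0.41), a change of 0.55 ± 0.07 (SE, adjusted p = 8.18e-06). Of the 51 genes, 1 was called higher and 1 lower than after NCS at 4 h, beside 2.81% and 1.02% of all varying genes. At 8 h the counts were likewise 1 and 1, beside 1.17% and 0.442%. In the lipid list, 2 of 20 genes were in the set, CYP4F3 and PLIN2, a coat protein of lipid droplets. PLIN2 read 11.68, 11.47 and 11.71 at 8 h after H2O2 and 11.06, 11.04 and 11.05 after NCS, apart by 0.57 ± 0.04 (SE, adjusted p = 8.39e-09).

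In 8 of the 15 lists, 0 genes were in the set: tRNA synthetases, lysosome and autophagy, circadian clock output, EGF receptor ligands, secreted cytokines, heat shock, endoplasmic reticulum stress and p53 targets. For p53 targets the choice left little room. Of 31 varying genes of that list, 23 were more than 0.5 above untreated cells at 24 h after H2O2 and 21 after NCS. Only 3 were under 0.25 after NCS and so met that limit. Lysosome and autophagy genes gave 7 of 45 above 0.5 after H2O2 and 2 after NCS, and heat shock genes 0 of 18 after either. Over all 23368 genes the counts were 445 after H2O2 and 287 after NCS.

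Of the 72 genes, 70 were matched to a RefSeq gene, and 66 of these were protein coding. AGPAT9 and FLJ46906 were not matched. The matched genes lay on 20 chromosomes, and FTL and PPP1R15A lie 89.3 kb apart. Exons of 10 genes overlap those of another listed gene on the opposite strand (GENCODE v29), and the counting is not stated to have used strand, so that reads of such pairs may not be told apart. SLC4A5 shares 1324 bases with MTHFD2, a mitochondrial folate enzyme of the amino acid list that itself stood 0.78 above untreated cells at 24 h after H2O2 and 0.26 after NCS, so the value of SLC4A5 is uncertain. FTH1 shares 607 bases with BEST1, which stood 0.59 above after H2O2 and 0.46 after NCS. TRIM25 overlaps C17orf67 on the same strand by 132 bases.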

How the data were processed

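RNA from 21 libraries (7 groups of 3) was made into stranded mRNA libraries and sequenced. Per the labels and methods, the authors used HISAT2 for alignment, htseq-count for gene counts and the rLog function of DESeq2, so the deposited log2 values are normalized for library size. The submitters' processing notes name hg19, while tool versions and the annotation are not given in the sources used here. Depth is unknown.

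Values were used as deposited. Of 23368 rows, 3674 at 0 in every library were left out. All 7 groups entered 1 linear model in limma 3.58.1 (R 4.3.3), whose moderated variances followed the mean value, and p-values were adjusted over 19694 genes by the Benjamini-Hochberg method. A call needed an adjusted p under 0.05 and a difference over 0.5. The fit was tested on simulated data. The genes, gene lists and motifs were chosen with earlier results of these data known, the lists being compiled by hand from common knowledge, and the joint ISR and amino acid group was formed after its values were seen. Genes are named if among the 15 largest H2O2 24 h differences, the 8 highest or 5 lowest calls at 4 h or 8 h or the 5 at each end of the interaction, in a list, nearest a limit, or among the 5 lowest after NCS. Others were chosen after their values were seen. A gene near the NCS limit is not reported here. RefSeq promoter windows (GRCh38.p14) were matched by symbol or gene ID, and both strands were searched. Other steps used Python 3.11.15 with pandas 2.3.3, numpy 2.4.6 and matplotlib 3.10.9. Alternatives were aligned library medians, quantile normalization, a mean of at least 5, other limits, a fit of the compared groups, leaving out each library, and the replicate block.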

Additional observations from a re-analysis of the deposited data

Results flagged for a closer look

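For 7 of the genes, the difference between H2O2 and NCS changed from 4 h to 8 h by the test of the interaction, as the report gives. The change was 0.8764 for OSBPL6, 0.7891 for C9orf91, 0.7512 for TRIM16, 0.7444 for FOXQ1 and 0.7251 for TRIM16L. The H2O2 means of FOXQ1 and TRIM16 were below NCS at 4 h and above it at 8 h, and those of the other 3 were above NCS at both times. The change was -0.9054 for AOC2 and -0.5048 for RND3, where the gap narrowed. These are the genes that the naming rule picks from the 17 called, so their sizes were selected for being large.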

How the results depend on the processing

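Counts of calls, higher and lower together, kept within 1.5 times their value under aligned medians, quantile normalization, a mean of at least 5, a fit of only the groups compared and each library left out. The limit of size mattered most. A limit of 1 left 4 of 17 genes for H2O2 against NCS at 4 h, 6 of 34 at 8 h, 1 of 15 for H2O2 8 h against 4 h, 0 of 17 for the interaction, 3 of 15 and 4 of 35 for H2O2 against untreated cells at 4 h and 8 h, and 0 of 3 for NCS at 4 h. With adjusted p alone these counts were 44, 60, 47, 47, 48, 60 and 15, and 20 in place of 0 for NCS at 8 h.

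With 1 library left out at a time, the counts ran from 17 to 18, 29 to 38, 12 to 20, 15 to 20, 14 to 17, 31 to 38, 2 to 3 and 0 to 0 in that order. Without NCS 4 h replicate 1, 1 gene and not 2 was higher after NCS at 4 h. The number of genes chosen was 58 with aligned medians (58 of the 72 among them), 76 with quantile normalization (57 among them), 68 with a mean of at least 5, and 68 to 80 with 1 library left out.

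Whether replicate numbers pair the libraries is not settled. The deviations of same-numbered libraries correlated above 0.1 in all 3 pairs in 0 comparisons, a limit that cannot show pairing to be absent. The correlations were 0.192, 0.0381 and 0.189 for H2O2 and NCS at 8 h, where the replicate 2 pair holds the library that stood apart. The replicate block left the counts at 17, 34, 15, 17, 15, 35, 3 and 0. Of 69 called values of named genes, 837 alternative values gave 808 calls in the same direction, 29 losses at 10 of them and 0 reversals. The losses with aligned medians, 1 in number, and with quantile normalization, 4, included RND3 in the interaction, at -0.48 in both. All of these values are shrunken rLog differences of unknown depth, so a gene that did not pass may still have changed.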
